A study of Drosophila melanogaster with 2 samples.

Results

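The cytoplasmic ribosomal protein genes were followed across 84 single Drosophila melanogaster embryos of up to about 3 h of age. Members were all genes of the normalized table whose symbol starts with RpL or RpS followed by a digit or P, together with sta (stubarista), which encodes the small-subunit protein known in other species as RPSA. The rule gave 86 of the 7629 genes, of which 50 belong by name to the large and 36 to the small subunit. Within that table the symbols alone decided membership, although the rule was set with earlier results of these data known. Another 7 symbols that meet the rule occur only among the 17807 genes of the raw counts.

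All embryos were wild type and came from the inbred line DGRP-737 of the Drosophila Genetic Reference Panel, with no treatment. For sequencing, a modified form of CEL-Seq2 marked polyadenylated RNA near its 3′ end with a barcode for the embryo and a unique molecular identifier (UMI) for the molecule, and the barcoded embryos were pooled into 2 libraries. The study grouped the embryos by the likeness of their transcriptomes into 8 clusters, here called clusters 1 to 7 and the last cluster, with 29, 11, 6, 3, 9, 7, 10 and 9 embryos, and then placed the embryos along a pseudo-time, meaning an inferred developmental order. Positions given here count the embryos in the column order of the deposited normalized table. DNA genotyping had assigned 30 embryos as female and 31 as male, with 23 not typed. By the letter in their names, 37 embryos came from cage B and 47 from cage A. The digit in the names was 1 for 28 embryos, 2 for 33 and 3 for 23 and is read here as the order of the collection intervals, a meaning the sources do not state. Each embryo is a separate animal and counts as 1 replicate. Clusters were made from the expression values tested here, so that p-values between them are not those of independent groups. Sex, cage and name digit were set without the RNA. However, the study had left out unfertilized eggs and embryos older than about 3 h by their expression. Which embryos remain therefore does depend on the RNA.

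The ribosome consists of a large subunit, which forms peptide bonds, and a small subunit, which reads the mRNA. Each subunit is built on ribosomal RNA with a fixed set of proteins, most of them present in a single copy. In the Drosophila egg the mother supplies ribosomes and ribosomal protein mRNAs, and the embryo then passes from maternal to zygotic transcripts. Loss of 1 gene copy of many of these proteins gives the Minute phenotype of slow development and short bristles. Several members have a second gene copy, and some copies, such as RpS5b and RpS19b, are known for expression in the germline.

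Between 274425 and 2104120 UMIs were counted per embryo over the genes of the table (median 931566), and 66 embryos had at least 500000. The 6-base UMI set a ceiling on the count of a gene in an embryo. The highest count in the raw libraries was 4092, which equals the 4096 possible 6-base sequences less the 4 made of a single base, and 13 entries stood at this value. Abundant genes in deep embryos are therefore undercounted. At 2046 UMIs about 27.9% of molecules would be lost to shared UMIs, and 57 of the 86 members exceeded this count in at least 1 embryo (580 of 7224 values). Values are as deposited unless they are called corrected for this loss. Marker transcripts followed the labelled order, but that order was itself built from the expression values, so they are no separate check of it. The summed level of 8 zygotic genes such as ftz and eve had a median of 899 ppm, that is UMIs per 1000000 UMIs of the embryo, in the last cluster and 6.04 in cluster 1. That of 6 maternal genes such as bcd was 46.6 in the last cluster and 3325 in cluster 1. None of the 16 follicle cell genes checked was in the normalized table.

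The ribosomal protein genes were among the most abundant transcripts. Their mean level over the 84 embryos ranged between 0.796 and 2792 ppm, with a median of 825, and 76 of the 86 members were in the top 10% of all genes. UMIs count molecules at 1 end of the transcript, so levels were not divided by length. The 5 most abundant members were RpS3A, RpL3, RpS26, RpS2 and RpS13. The 5 least abundant were RpS19b, RpS15Ab, RpLP0-like, RpS14b and RpL34a, each the less abundant gene of a pair of related genes. The 10 most abundant members held 27.4% of the ribosomal protein UMIs.

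Summed over all members, ribosomal protein transcripts made up 6.97% ± 0.60 of the UMIs of an embryo (mean ± SD over the embryos counted above) in cluster 1 and 6.80% ± 0.532 in cluster 2. Cluster 3 had 7.60% ± 0.562, cluster 4 had 8.57% ± 0.290 and cluster 5 had 9.44% ± 0.739. Cluster 6 had 10.7% ± 0.918, cluster 7 had 10.6% ± 0.937 and the last cluster had 10.6% ± 0.540. The share was thus level over clusters 1 and 2, was higher in each cluster through cluster 6, and was level from there on. These sums are a description and were not tested, since the members were chosen with results of these data known. The ratio of the mean shares was 1.354 between clusters 5 and 1 and 1.517 between the last cluster and cluster 1. It was 1.121 between the last cluster and cluster 5. With corrected counts these ratios were 1.316, 1.443 and 1.096. Depth differed as well, with a mean of 1079110 UMIs in cluster 1 and 625155 in cluster 6. The Spearman correlation of depth and share was -0.46, -0.82 and -0.75 within clusters 1, 5 and 6, and 0.003, -0.067 and -0.61 with corrected counts.

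The embryos themselves showed the same order. The lowest share, 5.46%, was that of the embryo at position 28 of the pseudo-time in cluster 1, and the highest, 12.0%, that of the embryo at position 63 in cluster 6. Their depths differed, with 1980627 UMIs at position 28 and 403597 at position 63. With corrected counts the lowest share was again at position 28 (6.06%), and the highest at position 74 in cluster 7 (13.6%). In clusters 6, 7 and the last, the lowest of 26 embryos had 8.88%, whereas the highest of the 40 embryos of clusters 1 and 2 had 8.40%, so these did not overlap. Of the 44 embryos from cluster 3 on, 38 exceeded 8.40%. A running median over 5 embryos was lowest at position 20 (6.54%), first exceeded 8.40% at position 47 and was highest at position 70 (11.0%). With counts corrected for shared UMIs, the mean share was 7.40% ± 0.622 (cluster 1), 9.74% ± 0.863 (cluster 5) and 10.7% ± 0.488 (last). The values are shares of all UMIs in whole embryos: more ribosomal protein mRNA and loss of other mRNA cannot be told apart, nor can changes in cell number and in mRNA per cell.

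**Figure D1:**
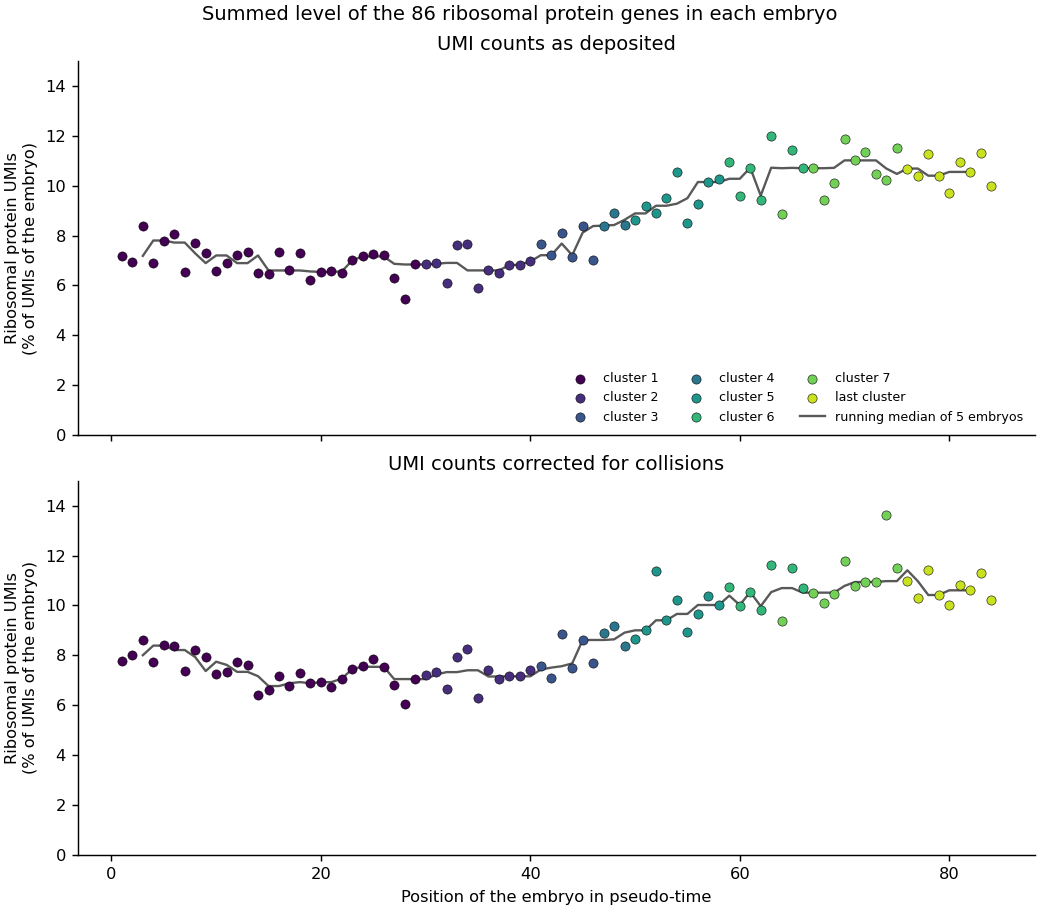
Share of UMIs from the 86 ribosomal protein genes (%, y axis) for each of the 84 embryos in pseudo-time order (x axis), as deposited (top) and corrected for shared UMIs (bottom); points are embryos coloured by cluster and the line is a running median over 5 embryos. As deposited, the embryos of clusters 1 and 2 reach at most 8.40%, and those of clusters 6, 7 and the last lie between 8.88% and 12.0%.

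The large and small subunits moved together. Large-subunit transcripts held 3.96% ± 0.334 of the UMIs in cluster 1, against 5.33% ± 0.405 in cluster 5 and 5.99% ± 0.327 in the last. For small-subunit transcripts the values were 3.008% ± 0.277 (cluster 1), 4.11% ± 0.369 (cluster 5) and 4.59% ± 0.224 (last). The ratio of small-subunit to large-subunit UMIs averaged between 0.752 and 0.776 in the 8 clusters, and between 0.767 and 0.812 with corrected counts. In single genes, the mean level relative to cluster 1 had a median over members of 0.979-fold (cluster 2), 1.071-fold (cluster 3), 1.204-fold (cluster 4), 1.358-fold (cluster 5), 1.53-fold (cluster 6), 1.563-fold (cluster 7) and 1.535-fold (last). The cluster with the highest mean was cluster 7 for 42 members, the last cluster for 22, cluster 6 for 21 and cluster 5 for 1, the biogenesis-related RpLP0-like. The lowest mean was in cluster 2 for 44 members and in cluster 1 for 25.

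**Figure D2:**
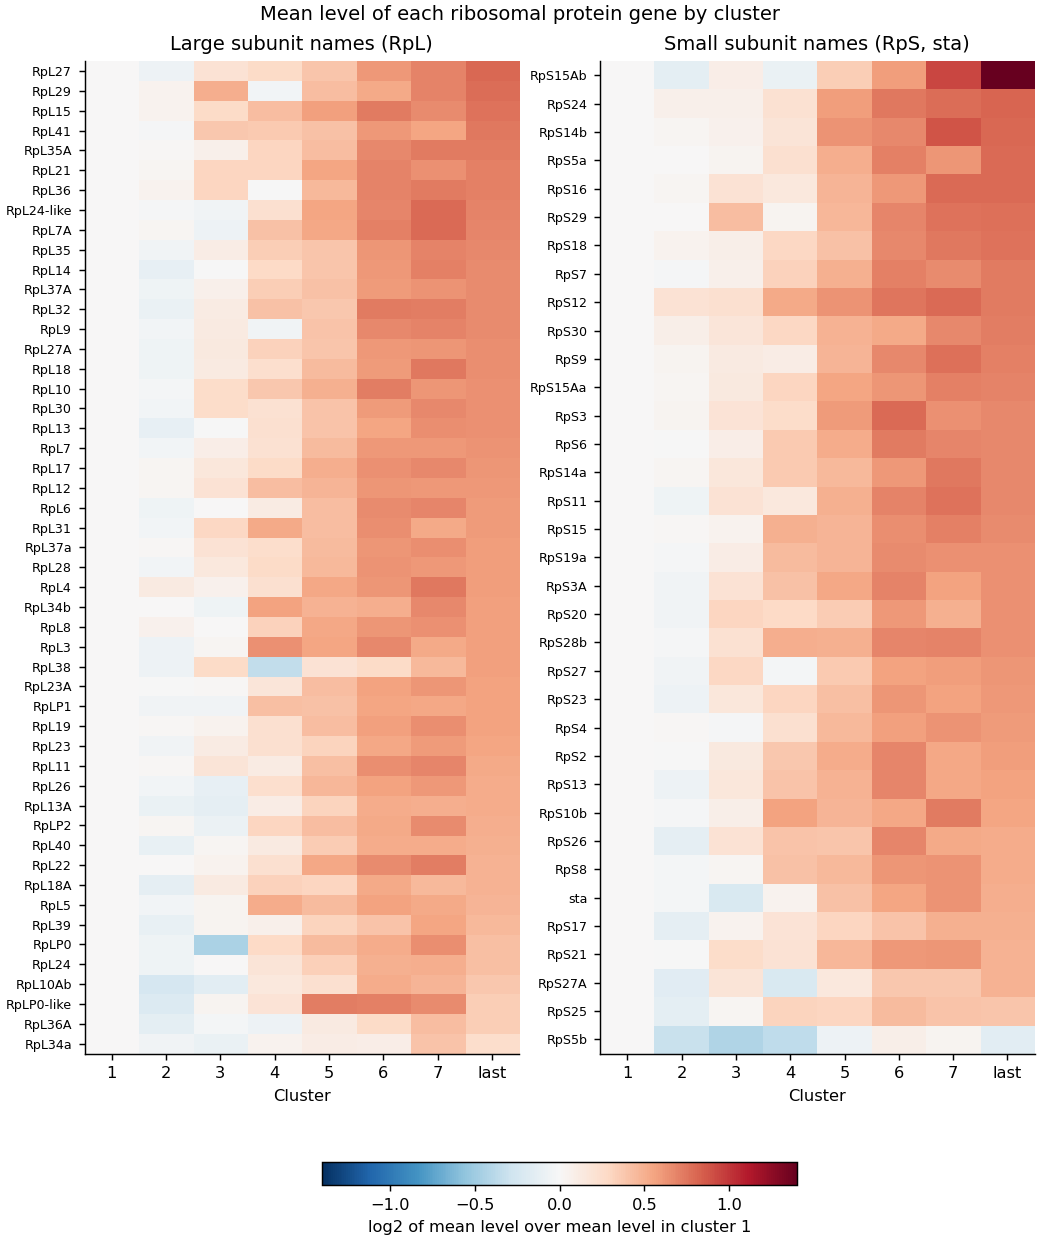
Mean level of 85 ribosomal protein genes in each cluster relative to cluster 1 (log2, colour), with large-subunit genes on the left, small-subunit genes and sta on the right, and clusters 1 to 7 and the last cluster from left to right; RpS19b, with 52 UMIs in all, is left out. Most rows change together through clusters 3 to 6, and the rows of RpS5b and RpS15Ab differ from the others.

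The comparison of cluster 5 with cluster 1 asks which genes differed between embryos after and before most of the change in the sum. With edgeR's quasi-likelihood test on UMI counts (Benjamini-Hochberg adjusted p below 0.01 over 7619 genes tested), 84 of the 86 members were higher in cluster 5 and 0 were lower. Of all genes tested, 40.3% were higher and 38.6% were lower. The differences were small and alike: the median log2 fold change was 0.63 for the members and 0.13 for all genes, 80 members lay within 0.25 of the member median, and none exceeded 2-fold, against 51.4% of all genes called by the study's rule of an adjusted p below 0.01 and a change beyond 2-fold in either direction. With library totals in place of TMM factors the median over all genes was 0.17 lower, and the member median stood 0.49 above it, against 0.50 with TMM. By subunit, all 50 large-subunit genes rose (median 0.62), as did 34 of 36 small-subunit genes (median 0.66). The 15 X-linked members all rose (median 0.68), as did 69 of the 71 autosomal members (median 0.62). The 2 members that did not pass were RpS5b and RpS19b.

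RpS12, a small-subunit protein, had a level of 699 ppm in the lowest embryo of cluster 5, 804 in the median and 933 in the highest, against 395, 513 and 587 in cluster 1. No embryo of cluster 5 was as low as the highest of cluster 1. The log2 fold change of RpS12 was 0.82 (SE 0.061, edgeR adjusted p = 1.63e-17). Such separation held for 10 of the 86 members (11.6%), against 10.3% of all genes, so that the members were not set apart by it. The other 9 were RpL15, RpS6, RpL4, RpS15Aa, RpS4, RpL8, RpL26, RpL7A and RpL22, and these and RpL36A, RpS27A and RpL38 are named because of their values. Between the last cluster and cluster 1, 42 members (48.8%) had no overlap, against 15.6% of all genes. The 5 largest differences in cluster 5 over cluster 1 were those of RpLP0-like (0.96), RpS12, RpS14b (0.81), RpS3 (0.78), which lies at the mRNA entry of the small subunit, and RpS24 (0.77). At the other end stood RpL34a (0.33), the large-subunit protein RpL36A (0.33), RpS27A (0.34), made as a fusion with ubiquitin, and RpL38 (0.39), whose smaller differences still passed the test.

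**Figure D3:**
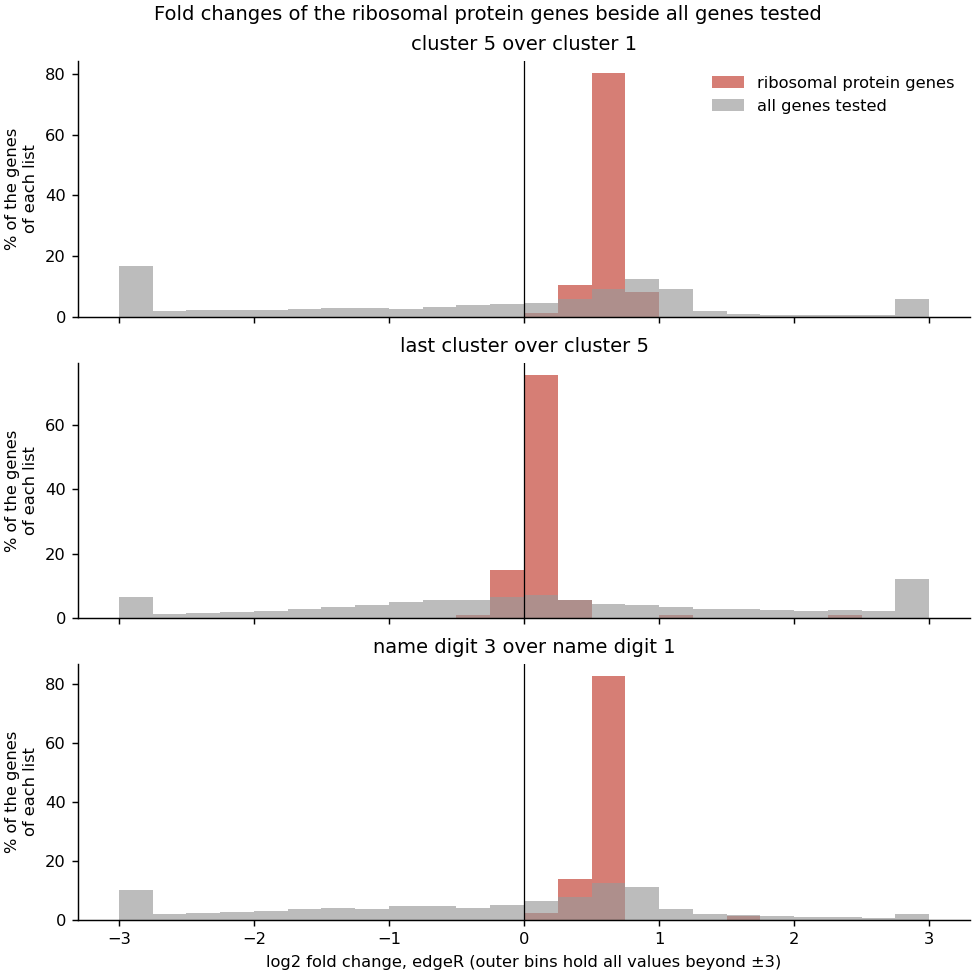
Distribution of log2 fold changes (edgeR, bins of 0.25, the outer bins holding all values beyond 3 or below -3) of the ribosomal protein genes and of all genes tested, as percent of each, for cluster 5 over cluster 1, the last cluster over cluster 5, and name digit 3 over name digit 1. The members form a narrow peak at medians of 0.63, 0.08 and 0.59, whereas all genes spread widely on both sides of 0.

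The 5 most abundant members had about the same size of change as the rest. RpS3A, a small-subunit protein encoded on chromosome 4 (65225 to 67207, release 6 of the genome), averaged 3290 ± 709 ppm in cluster 5 and 2261 ± 320 in cluster 1, higher by 0.72 on the log2 scale (SE 0.103, adjusted p = 1.05e-08 with edgeR). RpL3, which reaches toward the peptidyl transferase centre, averaged 3353 ± 833 in cluster 5 and 2289 ± 446 in cluster 1 (0.73, SE 0.121, edgeR adjusted p = 2.90e-07). RpS26, at the mRNA exit of the small subunit, averaged 2885 ± 606 in cluster 5 and 2208 ± 398 in cluster 1 (0.57, SE 0.112, edgeR adjusted p = 8.98e-06). With only the embryos of at least 500000 UMIs the call of RpS26 was lost (0.35, edgeR adjusted p = 0.0195). RpS2 (0.70) and RpS13 (0.67) rose likewise. Counts of RpS3A and RpL3 exceeded 2046 in 59 and 61 embryos, so their levels are among the most reduced by shared UMIs. After correction RpS3A averaged 4196 ± 262 in cluster 5 and 2944 ± 251 in cluster 1, and RpL3 averaged 4211 ± 654 in cluster 5 and 2982 ± 475 in cluster 1.

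Other genes of translation were set beside the members. Of 14 elongation and ribosome-associated factors, such as eEF2 and Rack1, 12 were higher and 2 lower in cluster 5 than in cluster 1, with a median log2 fold change of 0.74. Of 72 mitochondrial ribosomal protein genes, 24 were higher and 29 lower, with a median of -0.06. Of 44 ribosome biogenesis genes, 21 were higher and 18 lower, with a median of 0.22. The mitochondrial and biogenesis genes thus changed in both directions, as did all genes tested (40.3% higher and 38.6% lower). The elongation and ribosome-associated factors were mostly higher, like the cytoplasmic ribosomal protein genes.

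Between neighbouring clusters few members passed the test, and the share of members that passed was at or below the background in most steps. In cluster 2, against cluster 1, 0 of 86 members were higher and 1, RpS5b, was lower (-0.34, SE 0.0862, edgeR adjusted p = 0.00177), against 7.11% of all genes higher and 13.6% lower. In cluster 3, against cluster 2, 2 members were higher, RpS27 (0.41) and RpS29 (0.49), and 0 lower (all genes 1.72% higher and 6.13% lower). In that step 0 members passed without the embryo at position 41, with limma and with library totals, and 6 passed with DESeq2. In cluster 4, against cluster 3, 1 member was higher, RpLP0, and 0 lower (all genes 4.28% higher and 12.7% lower). In cluster 5, against cluster 4, 5 members were higher, RpL38 (0.68), RpL36 (0.61), RpS14b (0.60), RpS27 (0.55) and RpS24 (0.51), and 0 lower (all genes 11.4% higher and 18.3% lower). The member medians in these steps were -0.06, 0.21, 0.25 and 0.32, against 0.00, 0.02, 0.02 and 0.04 for all genes. Cluster 4 holds only 3 embryos, and leaving out each in turn gave between 0 and 4 members for cluster 4 against cluster 3 and between 0 and 1 for cluster 5 against cluster 4.

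After cluster 5 few members passed the test, although the mean summed share was 9.44% in cluster 5 and 10.7% in cluster 6. In cluster 6, against cluster 5, all 86 fold changes were above 0 (median 0.22, against 0.01 for all genes), but 0 passed with edgeR and limma. Of all genes, 6.54% were higher and 10.9% lower with edgeR. At an unadjusted p below 0.05 there were 29 members, and 10 passed with DESeq2. No share of all genes is set beside these 2 counts. In cluster 7, against cluster 6, 0 members passed with edgeR and DESeq2 and 0 had an unadjusted p below 0.05 in either (all genes 2.15% higher and 2.76% lower). The last cluster, against cluster 7, had 0 members higher and 3 lower, the large-subunit protein RpL22 (-0.35), RpLP0 (-0.34, SE 0.102, edgeR adjusted p = 0.00423) and RpS10b (-0.28, edgeR adjusted p = 0.00773), against 55.5% of all genes in either direction. With library totals in place of TMM factors 0 of the members passed in that step.

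The last cluster was compared with cluster 5 to span the later part of the series. Only 3 of the 86 members were higher and 0 lower, against 35.5% and 31.5% of all genes, and 2 of them exceeded 2-fold, against 51.4% of all genes in either direction. The median log2 fold change was 0.08 for the members and 0.06 for all genes, and 10 members had an unadjusted p below 0.05. The count of members that passed depended on the fit, with 30 for DESeq2, 13 for limma and 10 for library totals in place of TMM factors. It was 8 without the embryo at position 52. The shares of all genes above are those of the main edgeR fit at the adjusted p. The counts of the other fits and of the unadjusted p have no such share beside them. Of the genes set beside them, 2 elongation factors were higher and 2 lower (of 14), 22 mitochondrial ribosomal protein genes were higher and 16 lower (of 72), and 17 biogenesis genes were higher and 12 lower (of 44).

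The largest difference between the last cluster and cluster 5 among members with more than a few UMIs was that of RpS15Ab, on chromosome 2R (10821676 to 10822399), a copy of the X-linked RpS15Aa, which contributes to the small subunit. In the last cluster its level was 33.3 ppm in the lowest, 65.3 in the median and 68.6 in the highest embryo, against 19.7, 28.7 and 43.7 in cluster 5. All but the lowest embryo of the last cluster thus lay above cluster 5. The log2 difference was 1.02 for RpS15Ab (SE 0.162, adjusted p = 1.13e-06 with edgeR) and 0.07 for RpS15Aa (SE 0.0948, edgeR adjusted p = 0.52). RpS15Ab was already somewhat higher in cluster 5 than in cluster 1 (0.53, SE 0.129, edgeR adjusted p = 0.000204), a call that was lost with DESeq2, limma and library totals. RpL27, a large-subunit protein, averaged 1186 ± 141.6 ppm in the last cluster and 888 ± 195 in cluster 5 (0.35, SE 0.115, edgeR adjusted p = 0.00722).

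RpS19b, a germline copy of RpS19a, was nearly absent, with 52 UMIs in 33 of the 84 embryos and at most 4 in any embryo. Cluster 1 held 6 UMIs in 6 of 29 embryos, cluster 5 held 3 in 2 of 9, and the last cluster held 18 in 8 of 9. The ratio of the summed levels was 6.72 between the last cluster and cluster 5 (95% exact interval 1.962 to 35.62, for counting error only) and 14.64 between the last cluster and cluster 1 (5.567 to 45.05). The test gave an edgeR adjusted p of 0.00112 for the last cluster against cluster 5, and the fitted fold of so few UMIs is not given. RpS19a, the main copy, averaged 1584 ± 152.2 ppm in the last cluster and 1409 ± 179.5 in cluster 5 (0.09, SE 0.111, edgeR adjusted p = 0.463). Germ plasm transcripts, the summed level of 7 genes such as pgc and vas, had a median of 833 in the last cluster and 2789 in cluster 1. Their part in the RpS19b result was not tested.

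The division of UMIs between RpS5a and RpS5b differed along the series. RpS5a is X-linked (17143588 to 17148264) and expressed widely, whereas RpS5b, on chromosome 3R (14900432 to 14901563), is known for its expression in the germline, and both encode the same small-subunit protein. RpS5a had 1445 ppm in the lowest, 1774 in the median and 2022 in the highest embryo of cluster 5, against 979, 1282 and 1522 in cluster 1. The same 3 values were 2038, 2189 and 2357 in the last cluster, where its lowest embryo was above the highest of cluster 5. The log2 fold change in cluster 5 over cluster 1 was 0.70 for RpS5a (SE 0.0727, edgeR adjusted p = 1.62e-12). Over cluster 5, the last cluster had a log2 fold change of 0.20 that did not pass the edgeR test (adjusted p = 0.0846), but it passed with DESeq2, limma, library totals, 1 fit of all embryos and corrected counts. RpS5b had 288 ppm in the lowest, 405 in the median and 586 in the highest embryo of cluster 5, against 304, 430 and 561 in cluster 1, so the ranges overlapped almost completely. Its log2 fold change was 0.13 in cluster 5 over cluster 1 (SE 0.0976, edgeR adjusted p = 0.225), and this turned to -0.06 with library totals. It was -0.14 in the last cluster over cluster 5 (edgeR adjusted p = 0.272).

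As a share of the UMIs of both copies, RpS5b made up 25.4% ± 2.99 in cluster 1 and 21.6% ± 2.52 in cluster 2. Its share was 18.8% ± 4.55 in cluster 5 and 15.1% ± 2.55 in the last cluster. Embryos of the last cluster lay between 12.4% and 20.4%, against 19.9% and 30.9% in cluster 1. The higher copy loses more UMIs at the ceiling, so the corrected shares were lower throughout (cluster 1 22.96%, cluster 5 16.2%, last cluster 12.7%). With both, the share was highest in cluster 1 and lowest in the last cluster. The study's summary lists reads mapped to unique genes separately, but how reads shared by near-identical copies were counted was not stated. Such reads could be lost from both copies or divided wrongly between them.

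The other pairs differed in how far their division changed. RpS15Ab made up 3.35% ± 0.877 of its pair (cluster 1), 2.88% ± 0.663 (cluster 5) and 5.37% ± 1.05 (last). RpL34b, on 3R, was the larger partner of RpL34a, also on 3R, with shares of 58.6% ± 4.43 (cluster 1), 65.3% ± 3.08 (cluster 5) and 64.6% ± 5.15 (last). Log2 differences between clusters 5 and 1 were 0.69 for RpL34b (SE 0.1, edgeR adjusted p = 1.55e-08) and 0.33 for RpL34a (SE 0.102, edgeR adjusted p = 0.003). The call of RpL34a was lost with 6 of the other fits, among them DESeq2 and the fit without the embryo at position 52 (0.16). RpS14a and RpS14b are neighbours on the X chromosome (7933742 to 7934677 and 7934898 to 7935792). The part of RpS14b in this pair was 14.6% (cluster 1), 16.2% (cluster 5) and 15.9% (last), and both rose in cluster 5 over cluster 1 (RpS14a 0.64, RpS14b 0.81). The remaining 2 pairs join a ribosomal protein with a relative that, in yeast, works in ribosome assembly and not in the mature ribosome.

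RpL24-like, the relative of yeast Rlp24, averaged 112.4 ± 16.4 ppm (cluster 1), 164.3 ± 32.5 (cluster 5) and 181.4 ± 19.8 (last). Its log2 fold change in cluster 5 over cluster 1 was 0.75, and that of RpL24 was 0.53. RpLP0-like, the relative of yeast Mrt4, had 30.8 ppm in the lowest, 53.3 in the median and 73.7 in the highest embryo of cluster 5, against 18.7, 29.2 and 44.4 in cluster 1. The groups overlapped, and the log2 difference of 0.96 (SE 0.123, adjusted p = 7.22e-10 with edgeR) was the largest of all members that passed. RpLP0-like averaged 39.4 ± 11.2 ppm in the last cluster, and its log2 fold change over cluster 5 of -0.42 did not pass the threshold (SE 0.172, edgeR adjusted p = 0.0273). With counts corrected for shared UMIs, RpLP0-like was the 1 member that exceeded 2-fold in cluster 5 over cluster 1.

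The stalk of the large subunit, which recruits elongation factors to the ribosome, is formed by RpLP0 with RpLP1 and RpLP2. RpLP0 had 880 ppm in the lowest, 1002 in the median and 1241 in the highest embryo of cluster 5, against 611, 755 and 939 in cluster 1. Its log2 fold change was 0.63 (edgeR adjusted p = 3.72e-11), close to those of RpLP1 (0.60) and RpLP2 (0.62). RpLP0 also differed between neighbouring clusters. It averaged 552 ± 179.7 ppm in cluster 3 and 916 ± 30.3 ppm in cluster 4, then 1180 ± 109.7 ppm in cluster 7 and 1011 ± 151.7 ppm in the last, and it rose in cluster 4 over cluster 3 (0.80, SE 0.2, edgeR adjusted p = 0.00251). Cluster 3 includes the embryo at position 41, in which RpLP0 was at 230 ppm. RpLP1 averaged 1194 ± 141.3 ppm (cluster 1), 1586 ± 161.3 (cluster 5) and 1762 ± 190.2 (last), and RpLP2 averaged 402 ± 65.6, 541 ± 66.7 and 572 ± 70.6 ppm in the same clusters. The small-subunit gene sta, on the X chromosome (1481797 to 1483413), averaged 931 ± 98.5 ppm (cluster 1), 1240 ± 77.9 (cluster 5) and 1323 ± 152.7 (last), with a log2 difference of 0.60 between clusters 5 and 1 (edgeR adjusted p = 2.02e-12).

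Collection digit, sex and cage were set without the RNA values, but the 84 embryos were kept partly by their expression. Embryos older than about 3 h, among them some of each digit, had been left out by their cluster. The digit comparison is therefore not fully independent of the RNA. The summed share was 7.57% ± 1.59 with name digit 1 (n = 28), 8.01% ± 1.59 with digit 2 (n = 33) and 10.1% ± 0.964 with digit 3 (n = 23), and the corrected shares were 7.99% ± 1.48, 8.40% ± 1.72 and 10.2% ± 0.829 in the same order. The ranges overlapped, between 8.49% and 12.0% with digit 3 and between 5.46% and 11.5% with digit 1. Of the 28 embryos with digit 1, 23 were in cluster 1 and 3 in the last cluster, while all 23 with digit 3 were in cluster 5 or later. In name digit 3 over name digit 1, 84 of the 86 members were higher and 0 lower (all genes 30.6% higher and 38.1% lower), with a median log2 fold change of 0.59, against 0.02 for all genes, and only RpS19b, with its few UMIs, exceeded 2-fold, against 39.5% of all genes. RpS12 had 699 ppm in the lowest, 851 in the median and 937 in the highest embryo of digit 3, against 420, 514 and 871 with digit 1 (log2 fold change 0.73, edgeR adjusted p = 1.19e-10). RpS5a differed as well (0.63), while RpS5b had medians of 435 with digit 3 and 430 with digit 1 (0.10, edgeR adjusted p = 0.225). RpL34a narrowly missed the threshold (0.25, edgeR adjusted p = 0.0107). The digit comparison shares embryos with that of the clusters and is not a second, separate set.

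The sexes showed no detected difference in these genes, as in nearly all genes tested. Over the 61 genotyped embryos, 0 of the 86 members passed when all sex terms of a spline model of cluster number were tested together, against 31 of all 7619 genes (0.407%), and 0 had an unadjusted p below 0.05. limma gave 0 as well, and a spline with 3 degrees of freedom left 1 member at an unadjusted p below 0.05. No share of all genes is set beside the counts at an unadjusted p. The female over male log2 fold change had a median of -0.01 over the members, and it was -0.015 for the 15 X-linked and -0.006 for the autosomal members, with single values between -0.10 and 0.12 apart from RpS19b. Within clusters the summed share was 9.44% ± 1.04 in 3 females and 9.44% ± 0.667 in 6 males of cluster 5, and 10.5% ± 0.663 in 5 females and 10.7% ± 0.405 in 4 males of the last cluster. The corrected shares were 9.60% ± 0.653 in females and 9.80% ± 1.003 in males of cluster 5, and 10.6% ± 0.508 in females and 10.8% ± 0.515 in males of the last cluster.

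Cage likewise gave 0 of 86 members with cluster in the model, with 0 of all 7619 genes (0%) passing. At an unadjusted p below 0.05 there were 5 members lower in cage B than in cage A with edgeR, 4 with DESeq2 and 7 with limma, against 5.92% of all genes in either direction with edgeR. The summed share was 9.82% ± 0.766 in cage B and 8.96% ± 0.36 in cage A within cluster 5, 6.68% ± 0.522 in cage B and 7.13% ± 0.593 in cage A within cluster 1, and 10.5% ± 0.573 in cage B and 10.6% ± 0.573 in cage A within the last cluster. With corrected counts these shares were 9.73% ± 0.718 in cage B and 9.74% ± 1.14 in cage A of cluster 5, 7.21% ± 0.56 in cage B and 7.49% ± 0.645 in cage A of cluster 1, and 10.7% in both cages of the last cluster, so the higher mean of cage B in cluster 5 was not seen after correction. Cage A of cluster 5 includes the embryo with the most UMIs of the series.

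Embryos of extreme depth stood apart in these genes. The embryo at position 52 of cluster 5 had the most UMIs of all (2104120), and 47 of its members exceeded 2046 UMIs. Its ribosomal protein share was 8.89% as deposited and 11.4% corrected. Relative to the mean of the other 8 embryos of the cluster, its 20 most abundant members had a median ratio of 0.781 as deposited and 1.16 corrected, and its 20 least abundant members had 1.52 and 1.37. The embryo at position 74 of cluster 7 (2073283 UMIs) was alike, with a share of 10.2% as deposited and 13.6% corrected, a median ratio of 0.747 and 1.18 for the 20 most abundant members, and of 1.54 and 1.51 for the 20 least abundant. In both, the abundant members were low and the rare members high in the median, and the median of the abundant members was above 1 with the correction, although some of them, such as RpL3 at position 52 and RpS26 at position 74, stayed below 1.

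The embryo at position 41 of cluster 3 had the fewest UMIs (274425), with no member above 2046 and a share of 7.68%, within the range of its cluster. Single members departed widely there. RpS5b had 20 UMIs, or 72.9 ppm, against 341 to 422 in the other 5 embryos of the cluster, RpL24-like had 32.8 against 103.4 to 136.3, and RpS4 had 230 against 596 to 642. In all, 13 of the 86 members were below 0.5 of the mean of the other 5 embryos, with a median ratio over members of 0.917, of 1.16 over the 20 most abundant and of 0.604 over the 20 least abundant. The correction left 14 such members. Of these 3 embryos only that at position 52 is in cluster 5 or cluster 1. Without it, 81 of the 86 members were higher in cluster 5 than in cluster 1, and 0 were lower.

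**Figure D4:**
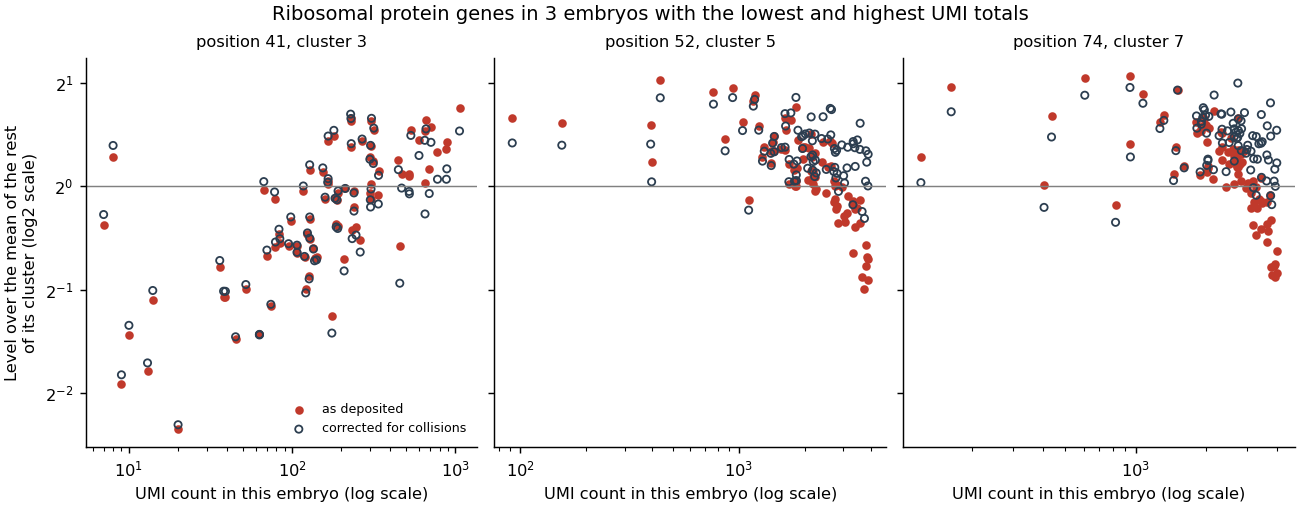
Level of each ribosomal protein gene in 1 embryo divided by its mean in the other embryos of the same cluster (y axis, log scale) against its UMI count in that embryo (x axis, log scale), for the embryos at positions 41, 52 and 74; filled points are as deposited, open points corrected for shared UMIs, and RpS19b is left out. At positions 52 and 74 the ratio falls with the count below 1 as deposited and most of the abundant genes, but not all, lie above 1 when corrected, while at position 41 the rarer genes scatter low.

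The 7 symbols found only in the raw counts were rare in both libraries. RpL37b had 55 UMIs in 29 barcodes, RpL22-like and RpS28-like had 9 UMIs each, RpS10a had 7, RpS28a 2, RpL7-like 1 and RpL10Aa 0. Over the 62 and 60 barcodes of the libraries with at least 250000 UMIs, the ribosomal protein share had a median of 9.28% (6.50% to 12.0%) and 8.77% (5.46% to 15.3%). These barcodes also include the unfertilized eggs and older embryos that are not among the 84, so the sets of embryos differ.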

How the data were processed

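Per the study's methods, the authors aligned reads with STARsolo (STAR 2.7.8a) to release 6.28 of the genome and deposited whole UMI counts per gene and barcode for 192 barcodes in each of 2 libraries. They also deposited normalized values for 84 embryos, each count divided by the embryo's total, multiplied by the smallest total, plus 0.1. These were the embryos of at least 250000 counts that remained after unfertilized eggs and embryos older than about 3 h were removed. After 0.1 was removed, 100% of values were whole multiples of 1 UMI (tolerance 0.001), so tests used these recovered counts, a change from log-scale values made once the unit was known. No column of per-sample values was left unused, and the library of each embryo was not assigned. Clusters and sex came from the study's supplementary tables and the order from the table's columns. The study's printed list of the order repeats an embryo after position 41 and numbers most later embryos higher by 1. The study's own comparisons were not used.

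Genes with at least 3 counts in 5 embryos (7619) were tested with edgeR's quasi-likelihood test (TMM factors, Benjamini-Hochberg, threshold 0.01), within each pair of clusters. The sexes were compared by testing all terms of sex in a model with a natural spline (7 degrees of freedom) over cluster number, and the cages with cluster as a factor. The SE is the log2 fold change divided by the root of F. The correction for shared UMIs assumes 4092 equally used UMIs. Intervals cover counting error only, and depth per embryo limits the rare members most. Alternatives were DESeq2, limma on log2 normalized counts (pseudocount 1), library totals, other filters (none or 10 counts), all embryos in 1 fit, cage as a covariate, embryos of at least 500000 UMIs, for sex an additive term or 3 degrees of freedom, and corrected counts. Those combining 2 choices, leaving out whichever of positions 41, 52 and 74 were in the clusters compared, or correcting the sex test were added after seeing the data.

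Members and lists were chosen with earlier results of these data known. Genes named by rule were the 5 highest and 5 lowest in mean level, the 5 largest changes in each direction among those that passed in cluster 5 over cluster 1 and the last cluster over cluster 5, all pairs with both genes in the table, the stalk proteins, sta, and any called between sexes or cages. Others were named after their values were seen. Annotation was Ensembl's for release 6, newer than the authors', and matched 86 members, 1 by a synonym. The fits were tested on simulated data. Python 3.11.15 (numpy 2.4.6, pandas 2.3.3, scipy 1.17.1, matplotlib 3.10.9) and R 4.3.3 (edgeR 4.0.16, limma 3.58.1, DESeq2 1.42.0) were used.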

Additional observations from a re-analysis of the deposited data

Results flagged for a closer look

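In 17 sets of values (a named gene or a sum in a cluster of 4 to 10 embryos), 11.7% of those tested, 1 embryo lay far from the rest, where chance gives about 1 in 20. Values are in ppm, UMIs per 1000000 UMIs of the embryo. In cluster 3 the embryo at position 41 was low in RpS24 (189.5, next 353.8), RpS5b (72.88, next 340.9) and RpL24-like (32.8, next 103.4). In cluster 5 the embryo at position 57 was high in RpLP0 (1241), that at position 52 was high in RpL34b (363.6) and RpL34a (207.7), and that at position 51 was high in RpS19b (2.055, from very few UMIs). In cluster 6 the embryo at position 65 was high in RpL24 (1442). In cluster 7 the embryo at position 74 was high in RpS15Aa (1288), RpS14a (1124), RpLP2 (946.8), RpL34b (455.8) and RpS14b (292.3), that at position 67 was low in RpL24-like (140.9) and that at position 75 was low in RpLP0-like (31.73). In the last cluster the embryo at position 79 was low in RpS24 (459.3) and that at position 81 in RpS15Ab (33.33, next 57.82). The embryos at positions 41, 52 and 74 have the lowest and the 2 highest UMI totals of the series and account for 10 of the 17.

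Members outside the normalized table had UMIs above the limit of 3 that a count of 0 allows in the raw counts: RpL37b with 55, RpL22-like with 9, RpS28-like with 9 and RpS10a with 7 over both libraries.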

How the results depend on the processing

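All counts are of the 86 members at an adjusted p below 0.01. In cluster 5 against cluster 1 between 76 and 84 members passed and in name digit 3 against 1 between 79 and 84. Beyond 2-fold, the count in cluster 5 against cluster 1 was 1 with corrected counts (main 0), that in the last cluster against cluster 5 was 0 with limma and 1 with the filter of 10 counts (main 2), and that in name digit 3 against 1 was 0 with limma (main 1). The counts with any fold were less stable for the smaller steps. In the last cluster against cluster 5 (main 3) they were 30 with DESeq2 and with all embryos in 1 fit, 13 with limma, 10 with library totals, 5 with embryos of at least 500000 UMIs and with corrected counts and library totals, and 8 without position 52. In cluster 2 against cluster 1 (main 1) 2 passed with DESeq2, limma, library totals, the filter of 10 counts, all embryos in 1 fit, the deeper embryos, corrected counts, and corrected counts with library totals. In cluster 3 against cluster 2 (main 2) they were 6 with DESeq2, 1 with all embryos in 1 fit, with cage and with corrected counts, and 0 with limma, library totals, the deeper embryos, corrected counts and library totals, and without position 41. In cluster 4 against cluster 3 (main 1) they were 7 with DESeq2, 11 with all embryos in 1 fit, 5 with cage and with corrected counts, 3 with corrected counts and library totals, 2 with library totals, the deeper embryos and without position 41, and 0 to 4 leaving out each embryo of cluster 4. In cluster 5 against cluster 4 (main 5) they were 2 with DESeq2, 9 with the filter of 10 counts, 18 with all embryos in 1 fit, 3 with cage, 23 with corrected counts, 13 without position 52, 0 with limma, library totals, the deeper embryos and corrected counts with library totals, and 0 to 1 leaving out each embryo of cluster 4. In cluster 6 against cluster 5 (main 0) they were 10 with DESeq2 and 5 with all embryos in 1 fit. In the last cluster against cluster 7 (main 3) they were 14 with corrected counts, 1 with all embryos in 1 fit and with the deeper embryos, and 0 with limma, library totals and corrected counts with library totals. The causes were not tested.

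The share of higher genes among all that passed was 23.6% with library totals and 38.4% with TMM in cluster 5 against cluster 4, and 63.3% with library totals and 43.9% with TMM in cluster 7 against cluster 6. The ratio of summed shares between the last cluster and cluster 1 was 1.705 with TMM-scaled totals (main 1.517). RpS5b in cluster 5 against cluster 1 turned to -0.062 with DESeq2, -0.074 with limma, -0.057 with library totals and -0.13 with corrected counts and library totals (main 0.127). For single named genes 339 alternatives gave the same call, 12 lost it, 6 gained it and 4 changed direction, the last all RpS5b. No paired analysis was possible because equal numbers in the names of embryos from different cages or collection digits belong to different animals, and GEO's labels number no embryo. Depth limits RpS19b, RpS15Ab and RpLP0-like most, and the UMI ceiling limits members above 2046 UMIs.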
